A study of Rattus norvegicus with 10 samples.

Results

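Ndfip2, Trim2 and Mex3c were followed in the lungs of rats brought into septic shock with lipopolysaccharide (LPS), a bacterial glycolipid that triggers innate immunity, and in control lungs. The members are the catalogue probes of the array whose RefSeq accession is that of one of these genes in the rat, A_44_P1047638 for Ndfip2 (NM_001108390), A_44_P761041 for Trim2 (NM_001108552) and A_43_P20016 for Mex3c (NM_001107377). They are 3 of the 30 genes with a symbol on an array of 38804 probes, and all 3 passed the filter on dim probes, as did 36020 probes in all. Only 50 probes are catalogue probes, and the others were not tied to genes. Shares and percentiles over all probes are therefore not shares or ranks among genes. The rats were male, of the Wistar strain and 8 weeks old, and total RNA of the lung, carrying the dye Cy3, was read on 1-colour Agilent microarrays, 5 from LPS rats and 5 from controls. Dose, route and time of LPS, and what the controls received, are not stated in the labels. Nothing in the labels ties each sample to an animal of its own, and p-values then cover only the spread between these samples, which may be technical. Each of the 3 probes was printed as 10 spots per array and was well above background on all 10 arrays. None of the 24 lung, vessel, fibroblast, blood and leukocyte markers looked for had a probe that could be named, so the tissue label was not checked against markers.

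Ubiquitin is a small protein that is attached to other proteins and can send them to the proteasome or the lysosome. Ubiquitin ligases choose the substrates. Trim2 encodes a ligase of the TRIM family with a RING domain, best known in neurons, where it acts on the neurofilament light chain. Mex3c encodes an RNA-binding ligase that joins KH domains, which hold messenger RNA, to a RING domain. Ndfip2 encodes no ligase itself. It is a membrane protein of endosomes and the Golgi whose PY motifs bind and activate ligases of the NEDD4 family, and Ndfip1 encodes its closest relative. NEDD4 family ligases act in lung epithelium on the epithelial sodium channel and in immune cells on cytokine signalling.

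Promoter windows from RefSeq, build GRCr8, are shown because NF-kappaB and AP-1, transcription factors that LPS is known to activate, bind short motifs in promoters of their targets. Each window holds 250 bases before and 50 after the start site of the table, which had an entry for Ndfip2 and Trim2. Both windows lie inside the span that the RefSeq gene table gives the gene, so other start sites of these genes were not covered. Capitals mark every match, on either strand, to a set of 7 motifs searched.
Ndfip2, chr15:88446682-88446981, plus strand: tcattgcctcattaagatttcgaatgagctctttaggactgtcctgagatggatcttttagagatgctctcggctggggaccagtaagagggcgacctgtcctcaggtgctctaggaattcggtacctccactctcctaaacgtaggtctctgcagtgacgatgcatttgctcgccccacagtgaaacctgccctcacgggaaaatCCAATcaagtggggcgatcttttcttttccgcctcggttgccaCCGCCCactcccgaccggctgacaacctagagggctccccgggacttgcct
Trim2, chr2:171862395-171862694, minus strand: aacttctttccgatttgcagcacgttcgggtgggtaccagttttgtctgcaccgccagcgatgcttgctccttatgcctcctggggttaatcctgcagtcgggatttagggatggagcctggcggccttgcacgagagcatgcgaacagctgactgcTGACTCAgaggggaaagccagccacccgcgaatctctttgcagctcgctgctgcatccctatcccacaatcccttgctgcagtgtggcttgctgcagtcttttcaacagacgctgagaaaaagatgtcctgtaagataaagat
The Trim2 window held 1 AP-1 site (TGACTCA or TGAGTCA), whose first base lies 93 bases before the start site. That motif occurs in 4.63% of the 33469 promoter windows of this length. The Ndfip2 window held a CCAAT box (CCAAT), which 37.5% of windows hold, and a GC box (GGGCGG) across the start site, which 33.1% hold. Neither window matched the NF-kappaB site (7.51% of windows), the CRE (TGACGTCA, 1.83%), the E-box (CACGTG, 6.42%) or the TATA box (TATAAA, 14.2%). The Ndfip2 window held 15 CpG dinucleotides and the Trim2 window 13, more than 68% and 64.7% of windows. These matches describe letters in a window and were not tested as sites.

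The arrays carried 3 scan stamps, and arrays with the same stamp were taken to share a slide. Slide 2 held 4 controls, slide 1 held LPS replicates 6 and 7, and slide 3 held LPS replicates 1, 3 and 5 with control replicate 20. Across probes control replicate 20 had a median correlation of 0.967 with the other controls and 0.979 with the LPS arrays, against 0.990 to 0.994 of every other array with its own group. After scaling it stood apart for the 3 genes as well, so results are given with and without it. No spot was saturated. The 75th percentile of the signal, to which values are scaled, was 278 to 351 on slide 2, 486 to 494 on slide 1 and 380 to 494 on slide 3.

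Ndfip2 was higher in LPS lungs. Its log2 signal relative to the array's 75th percentile was 1.89, 1.89, 2.08, 2.20 and 2.02 in LPS replicates 1, 3, 5, 6 and 7. It was 1.71, 1.83, 1.68, 1.76 and 1.27 in control replicates 15, 16, 17, 18 and 20. All 5 LPS arrays lay above all 5 controls, narrowly between LPS replicate 1 and control replicate 16. Such a separation with LPS higher was found at 6.76% of all tested probes. The mean was 2.01 ± 0.13 (SD, n = 5) in LPS and 1.65 ± 0.22 (SD, n = 5) in control lungs. The rise was 1.29-fold, with a 95% confidence interval of 1.06 to 1.57, a log2 difference of 0.37 ± 0.13 (SE) and a limma adjusted p of 0.0469. At that threshold of 0.05, 33.0% of all tested probes were called and 14.7% were called higher in LPS and 18.2% lower, so a call of this kind was common. The exact 2-sided permutation test of the difference gave p = 0.00794, the smallest that the 252 assignments of 10 arrays can give. That test takes no account of slide. In whole lung, a different number of cells of a type and a different amount of RNA per cell cannot be told apart. Without control replicate 20 Ndfip2 differed by 0.27, with an adjusted p of 0.0301 in limma. In that fit 54.3% of all probes were called, and 45.8% of the called probes were higher in LPS.

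Before scaling its signal was 1407 to 2267 in LPS and 987 to 1146 in control arrays. The LPS arrays were brighter as a whole than the slide 2 controls, and Ndfip1, whose scaled signal did not pass the threshold, was also higher before scaling on all LPS arrays, at 2631 to 3715 against 2128 to 2429. The 9 or 10 spots of Ndfip2 kept after outlier removal had an SD of 0.093 to 0.15 on the log2 scale within an array. Among the 4 controls of slide 2 the SD between array means was 0.065. This is an SD of means over spots, so it is not comparable with the SD of single spots. The percentile of its signal among the probes of an array was 85.9 to 87.4 in LPS and 83.0 to 85.5 in controls. The call did not withstand the loss of an array in most cases. It was kept without LPS replicate 1 or control replicate 20, and leaving out any other array (LPS replicate 3, 5, 6 or 7, control replicate 15, 16, 17 or 18) raised the limma adjusted p to between 0.0511 and 0.1.

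**Figure D1:**
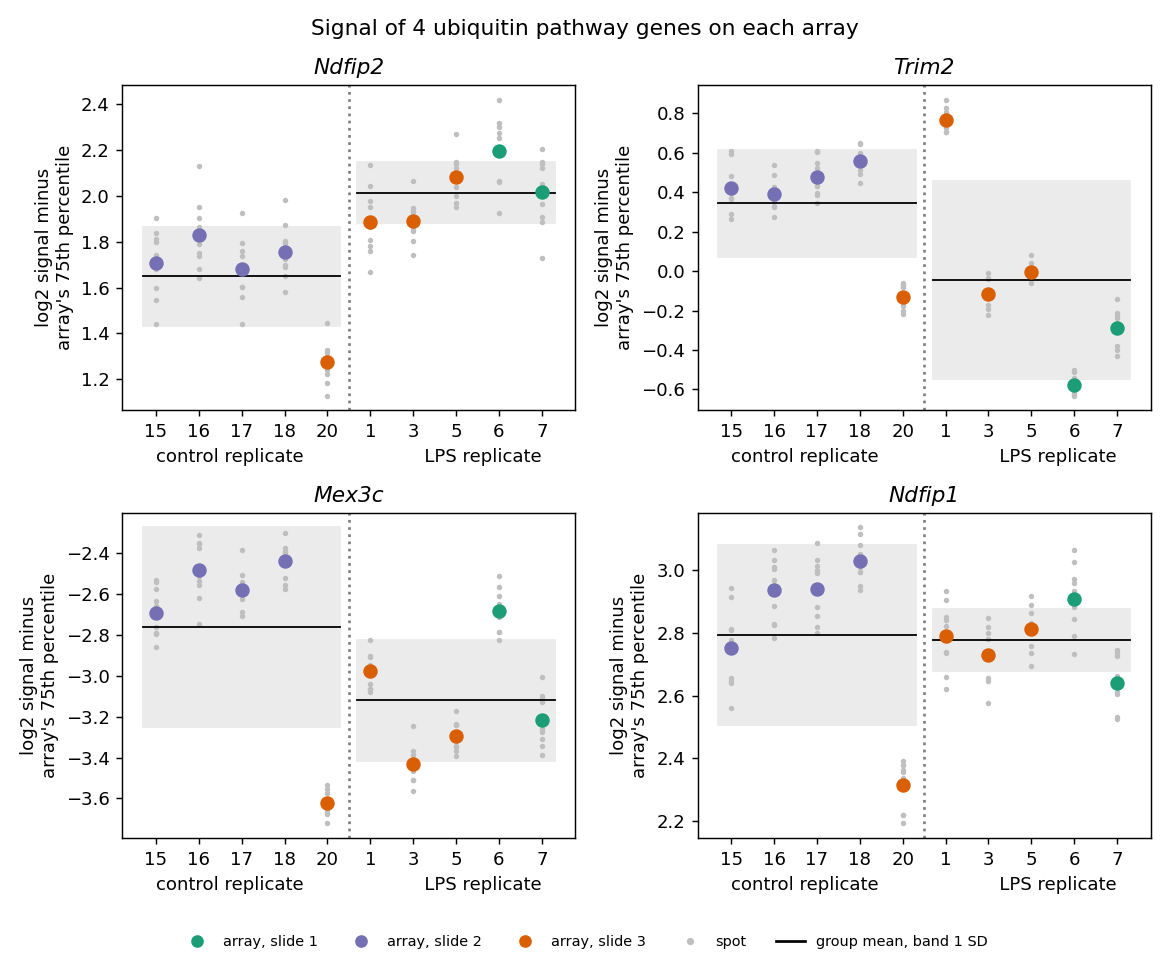
Log2 signal minus the 75th percentile of the array (vertical axis) for Ndfip2, Trim2, Mex3c and Ndfip1 on each array (horizontal axis), with small grey points for single spots, large points for array means coloured by slide, a line for the group mean and a band for 1 SD of 5 arrays. The 5 LPS arrays lie above the 5 controls for Ndfip2, LPS replicate 1 lies above the other LPS arrays for Trim2 at 0.77, and control replicate 20 is the lowest control in each panel.

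Trim2 did not pass the threshold, and its LPS arrays were spread widely. Its log2 signal was 0.77, -0.12, -0.0055, -0.58 and -0.29 in LPS replicates 1, 3, 5, 6 and 7. It was 0.42, 0.39, 0.48, 0.56 and -0.13 in control replicates 15, 16, 17, 18 and 20. LPS replicate 1 was the highest of the 10 arrays, and the other 4 LPS arrays lay below all 4 controls of slide 2. The LPS mean was -0.045 ± 0.50 (SD, n = 5) and the control mean 0.34 ± 0.27 (SD, n = 5). The log2 difference was -0.39 ± 0.23 (SE), with a 95% confidence interval of -0.88 to 0.10 and a limma adjusted p of 0.198, and the exact 2-sided permutation p was 0.159.

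The spread of Trim2 between LPS arrays was large. The highest LPS array was 2.55-fold the lowest, and the SD of 0.50 was larger than that of 95.4% of all tested probes in the LPS group. Within an LPS array the 8 to 10 spots kept after outlier removal had an SD of 0.049 to 0.092. The SD between arrays is one of means over spots, so it is not comparable with these. Over all 5 controls the highest array was 1.61-fold the lowest, and among the 4 of slide 2 it was 1.12-fold. The LPS arrays came from slides 1 and 3, and the mean on slide 3 was 0.65 above that on slide 1 in log2. The part of the slide in this spread was not tested. The result turned on a single array: without LPS replicate 1 the log2 difference became -0.59 at a limma adjusted p of 0.0268, where 17.7% of all probes were called lower in LPS. Without control replicate 20 it was -0.51, with an adjusted p of 0.0721 in limma. The mean signal before scaling was 452 in LPS and 423 in control arrays, with 648 on LPS replicate 1 and 331 to 493 on the other LPS arrays. The log2 difference was between -0.39 and -0.33 under the other scalings tried and in the authors' deposited table. With array weights in limma, which give less weight to arrays that vary more, Trim2 and Mex3c passed at -0.54 and -0.66 (adjusted p = 0.00749 and 0.000933), where 34.6% of all probes were called lower.

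Mex3c was the dimmest of the 3 probes and did not pass the threshold either. Its log2 signal was -2.98, -3.43, -3.30, -2.68 and -3.21 in LPS replicates 1, 3, 5, 6 and 7. It was -2.69, -2.48, -2.58, -2.44 and -3.62 in control replicates 15, 16, 17, 18 and 20. Control replicate 20 was the lowest of the 10 arrays, and LPS replicate 6 lay just above control replicate 15. The other 4 LPS arrays lay below the 4 controls of slide 2. The LPS mean was -3.12 ± 0.30 (SD, n = 5) and the control mean -2.76 ± 0.49 (SD, n = 5). The log2 difference was -0.36 ± 0.23 (SE), with a 95% confidence interval of -0.85 to 0.14, a limma adjusted p of 0.235 and an exact 2-sided permutation p of 0.198.

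Without control replicate 20 Mex3c was lower in LPS lungs by a log2 difference of -0.57, and the mean of the other controls was 1.49-fold the LPS mean. The limma adjusted p was then 0.0074. In that fit 54.3% of all probes were called and 29.4% were called lower, so a call of this kind was common there. Control replicate 20 differed from the mean of the other controls by -1.07 on the log2 scale, a gap in this direction that 4.98% of all tested probes matched or exceeded. The signal of Mex3c before scaling was 39.3 to 77.1 in LPS and 36.4 to 54.9 in control arrays, with means of 53.5 and 49.4 and the LPS maximum on LPS replicate 6. The log2 difference was between -0.36 and -0.15 under the other scalings tried with all arrays, and -0.30 in the authors' deposited table. The signal of Mex3c ranked between the 33.0 and the 49.5 percentile of the probes of an array.

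Beyond the 3 genes, a list of 59 names of ubiquitin ligases, adaptors, conjugating enzymes, deubiquitinases and their known targets was searched, 57 of which are symbols of the RefSeq gene table. Only Ndfip1 had a probe as well (A_44_P166216, NM_001013059). Of these 4 genes 1 was called higher in LPS, Ndfip2, and 0 were called lower by limma, against 14.7% and 18.2% of all probes. At an unadjusted p of 0.05 the counts were again 1 and 0, against 20.2% and 25.4% of all probes. Ndfip1 had a log2 signal of 2.79, 2.73, 2.81, 2.91 and 2.64 in LPS replicates 1, 3, 5, 6 and 7. It was 2.75, 2.94, 2.94, 3.03 and 2.31 in control replicates 15, 16, 17, 18 and 20. The groups overlapped, and control replicate 20 was the lowest array. The log2 difference was -0.017 ± 0.14 (SE), with a 95% confidence interval of -0.33 to 0.29 and a limma adjusted p of 0.934. Its sign flipped with median centring, to 0.022.

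Slide and group were largely confounded. Only slide 3 held both groups, so a value within a slide compares LPS replicates 1, 3 and 5 with control replicate 20 alone. There Ndfip2 was 1.60-fold higher in LPS, a log2 difference of 0.68, with a limma adjusted p of 0.0256 when slide was a fixed block. In that fit 10.1% of all probes were called and 4.83% were called higher. With slide as a random block Ndfip2 differed by 0.55, with a limma adjusted p of 0.0368, and 4.18% of probes were called higher. In a limma fit of slide 3 alone its adjusted p was 0.109. The p-values with the fixed block rest on the assumption that control replicate 20 varies like the other arrays.

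Within slide 3 the signs of the other genes turned. Trim2 was 0.35 higher in LPS on the log2 scale and Mex3c 0.39 higher, with limma adjusted p values of 0.499 and 0.328 in the fixed block. With slide as a random block Trim2 differed by -0.020 and Mex3c by 0.071, with limma adjusted p values of 0.975 and 0.885. Ndfip1 was 0.46 higher within slide 3, and its adjusted p in limma was 0.103 with the fixed block. Against the 4 controls of slide 2 the LPS arrays were higher by 0.27 for Ndfip2, or 1.21-fold, and differed by -0.51 for Trim2, -0.57 for Mex3c and -0.14 for Ndfip1. All 4 genes were thus higher in the LPS arrays of slide 3 than in control replicate 20, their lowest control, and this single array carries every value within slide 3. Control replicate 20 differed from the mean of the slide 2 controls by -0.47 for Ndfip2, -0.59 for Trim2 and -0.60 for Ndfip1 on the log2 scale. Gaps in this direction at least as large as those of Ndfip2 and Trim2 were found at 25.4% and 18.6% of all tested probes. Among the 29 tested genes with a symbol, nearly all had control replicate 20 below the mean of the slide 2 controls. Over all tested probes it was the lowest control at 42.4% and the highest at 33.5%, so the array was not low throughout. The part of the slide in these gaps was not tested.

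**Figure D2:**
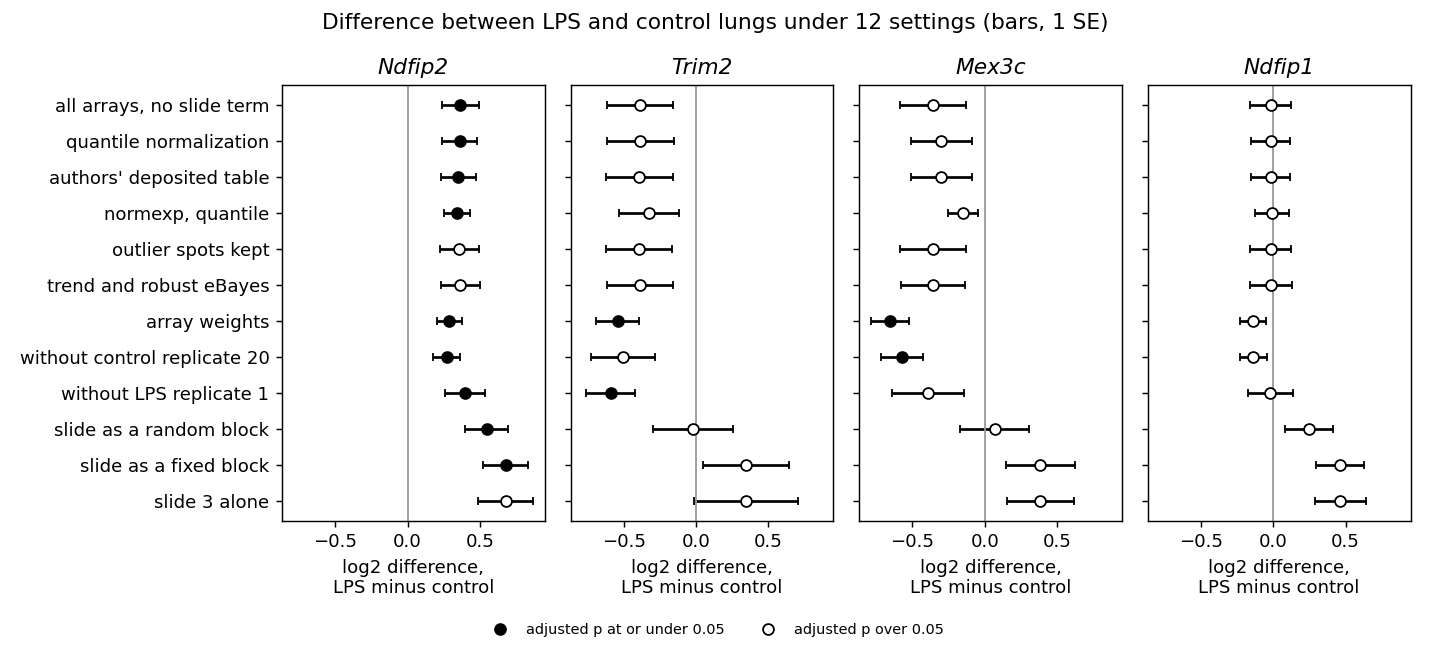
Log2 difference between LPS and control lungs (horizontal axis) for Ndfip2, Trim2, Mex3c and Ndfip1 under 12 settings of the limma fit (rows), with bars of 1 SE and filled points where the adjusted p was at or under 0.05. Ndfip2 is between 0.27 and 0.68 and open with outlier spots kept, with trend and robust eBayes and in slide 3 alone, and the 8 fits without 1 array that ended its call are not drawn; Trim2 and Mex3c are at -0.39 and -0.36 with all arrays and at 0.35 and 0.39 with slide as a fixed block.

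The last comparison asked whether the genes changed unequally. For it the log2 difference between 2 probes was taken within each array, which does not depend on the scaling to the 75th percentile. The level of such a difference has no meaning, since probes differ in brightness, and only its shift between groups is read. The 3 pairs of members were compared, with an exact 2-sided permutation test and Benjamini-Hochberg adjustment over the 3. Here and below, this test treats all arrays as exchangeable and takes no account of slide. A difference between slides and one between groups cannot be told apart by its p-values. Ndfip2 minus Mex3c was 4.86, 5.32, 5.38, 4.88 and 5.23 in LPS replicates 1, 3, 5, 6 and 7. It was 4.40, 4.31, 4.26, 4.19 and 4.89 in control replicates 15, 16, 17, 18 and 20. All 5 LPS arrays lay above the slide 2 controls, and control replicate 20 lay among the LPS arrays. The shift was 0.72, a 1.65-fold change of the ratio, with an exact permutation p of 0.0238 and an adjusted value of 0.0714. Without control replicate 20 it was 0.84, with an exact permutation p of 0.00794 and an adjusted value of 0.0238. Control replicate 20 was the only control among the LPS arrays, so leaving it out made that p the smallest possible.

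Ndfip2 minus Trim2 was 1.12, 2.01, 2.09, 2.78 and 2.31 in LPS replicates 1, 3, 5, 6 and 7, and 1.20 to 1.44 in the 5 controls. LPS replicate 1 lay below every control and the other 4 LPS arrays lay above. The shift was 0.75, a 1.69-fold change of the ratio, with an exact permutation p of 0.0476 and an adjusted value of 0.0714. Without LPS replicate 1 it was 0.99, with an exact permutation p of 0.00794 and an adjusted value of 0.0238. LPS replicate 1 was the only LPS array below the controls, so leaving it out made that p the smallest possible. For this pair control replicate 20, at 1.40, lay within the range of the other controls, and without it the shift was 0.78, with an exact permutation p of 0.0556 and an adjusted value of 0.0833. Trim2 minus Mex3c shifted by -0.032 ± 0.29 (SE), with an exact permutation p of 0.944, and its LPS arrays ran from 2.10 to 3.74. Without control replicate 20 the sign turned, to 0.064, with an exact permutation p of 0.825.

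Ndfip2 was also set against its relative Ndfip1, a pair added after the design had been fixed. Ndfip2 minus Ndfip1 was -0.90, -0.84, -0.73, -0.71 and -0.62 in LPS replicates 1, 3, 5, 6 and 7. It was -1.04, -1.11, -1.26, -1.27 and -1.04 in control replicates 15, 16, 17, 18 and 20. All 5 LPS arrays lay above all 5 controls, and control replicate 20 lay beside control replicate 15. Ndfip2 alone already separated the groups, as did 6.76% of all tested probes with LPS higher. How often other pairs of probes separate in this way was not tested, so the separation and its p have no background. The shift was 0.38 ± 0.071 (SE), a 1.30-fold change of the ratio toward Ndfip2, with an exact permutation p of 0.00794, the smallest possible, and 0.0317 after adjustment over all 4 pairs. It was 0.35 to 0.42 when any 1 array was left out. Since the groups do not overlap, each such fit gives the smallest p it can, and that p shows nothing about stability. Within slide 3 the shifts were 0.21 for this pair, 0.33 for Ndfip2 minus Trim2 and 0.29 for Ndfip2 minus Mex3c, each with the sign it had over all arrays. LPS replicate 1 lay below control replicate 20 for Ndfip2 minus Trim2 (1.12 against 1.40) and for Ndfip2 minus Mex3c (4.86 against 4.89). These values within slide 3 come from 3 LPS arrays and 1 control and have no test.

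**Figure D3:**
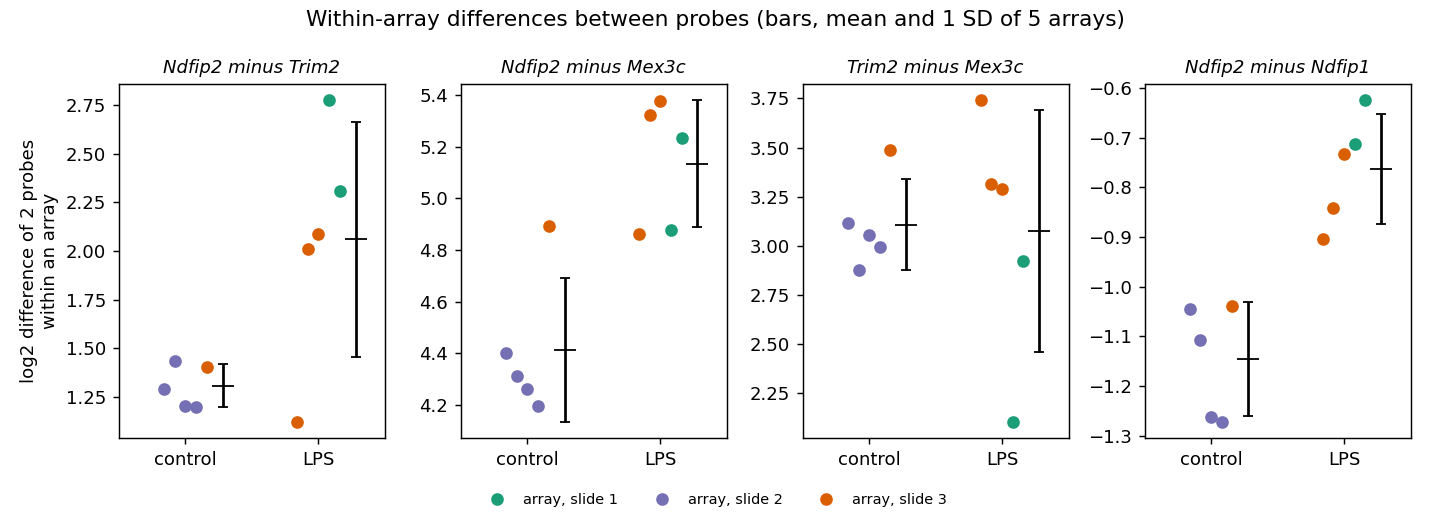
Log2 difference between 2 probes within an array (vertical axis) for 4 pairs of genes in control and LPS lungs, with 1 point per array coloured by slide and bars for the mean and 1 SD of 5 arrays. Ndfip2 minus Ndfip1 lies between -0.90 and -0.62 in LPS and between -1.27 and -1.04 in control arrays, and Trim2 minus Mex3c overlaps throughout.

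Among the other genes with a symbol, those whose profile over the 10 arrays was nearest to each member were found by the root mean square (RMS) difference of log2 values, after each gene was centred on its mean. The arrays share their slides and groups, so a small difference describes the profile and no more. Nearest to Ndfip2 were Pop7, which encodes a protein of RNase P, at an RMS difference of 0.088, and Nat1, an arylamine acetyltransferase, at 0.13. A flat profile would have had an RMS difference of 0.24 from Ndfip2. Pop7 and Nat1 did not pass the threshold. They differed by 0.22 and 0.35 on the log2 scale, and their adjusted p in limma was 0.213 and 0.0788. Nearest to Mex3c were Pdk3, a kinase that inhibits pyruvate dehydrogenase, at 0.14 and Dlg4, a synaptic scaffold protein, at 0.19, against 0.40 for a flat profile. Control replicate 20 differed from the mean of the other controls by -1.39 on the log2 scale for Pdk3 and by -0.90 for Dlg4. Nearest to Trim2 were LOC108352165 at 0.23 and Ldha, a subunit of lactate dehydrogenase, at 0.28, against 0.41 for a flat profile.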

How the data were processed

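RNA of rat lung was measured on 10 single-colour Agilent arrays, 1 per sample. The authors deposited spot intensity values from Agilent Feature Extraction 11.0.1.1, background-subtracted and detrended but not normalized between arrays, per the file headers. A table of log2 values was deposited as well; how it was made is not given in the sources.

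Control and outlier spots were dropped, spots of 1 probe were averaged on the log2 scale, and each array's 75th percentile over probes was subtracted. Of 38804 probes, 126 were left out for outlier spots and 2658 as dim, meaning above background on fewer than 5 of 10 arrays. The other 36020 were fitted with limma 3.58.1 (lmFit, eBayes) in R 4.3.3, 2-sided, on the groups alone, with Benjamini-Hochberg adjustment over all of them. Direction is LPS minus control. Symbols came from accessions matched in the RefSeq gene table (GRCr8), which served for names only. Slides were inferred from shared scan stamps in the file headers. No barcode of the headers occurred more than once within a stamp, which does not show that arrays of a stamp share a slide. Alternatives were other scalings, normexp with an offset of 50, the authors' table, other filters, trend and robust eBayes, array weights, slide as a fixed or random block (statmod 1.5.0), slide 3 alone and leaving out each array. The fit was tested on simulated data. The number of arrays limits the precision. Named were the 3 genes, genes of the ubiquitin list with a probe, and for each member the 2 genes of nearest profile. Members and lists were chosen with earlier results of these data known.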

Additional observations from a re-analysis of the deposited data

Results flagged for a closer look

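Before scaling, control replicate 20 read 1083 for Ndfip2 and 409 for Trim2, within the 987 to 1146 and 365 to 469 of the other controls. For Mex3c it read 36.4, below their 49.7 to 54.9. After scaling, it lay far below the other controls for each of the 3 genes. Its gap to the next control was 0.733 of the range of the 5 controls for Ndfip2, 0.76 for Trim2 and 0.783 for Mex3c, where a gap above 0.71 marks an array as far from the others. In 16 sets of 5 arrays looked at (4 genes and 4 pairs of probes in each group), these 3 were the ones so marked, and chance marks about 1 in 20 such sets. The sets share the same arrays, so the 3 are not separate events. Among all tested probes, control replicate 20 was lower than the other controls by such a gap at 6.99% and higher by such a gap at 9.36%. It was the lowest control at 42.4% and the highest at 33.5% of all tested probes. At nearly all of the 29 tested genes with a symbol it lay below the mean of the other controls. A low value on this array was therefore not particular to the 3 genes.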

How the results depend on the processing

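Ndfip2 was higher in LPS under all 25 alternatives and passed the limma threshold in 13 of the 24 that were limma fits. It missed it when outlier spots were kept (0.36, adjusted p = 0.0559), with trend and robust eBayes (0.37, 0.0514) and in slide 3 alone (0.68, 0.109), and leaving out 1 array gave 0.27 to 0.41. Trim2 and Mex3c passed with array weights (-0.54 and -0.66, limma adjusted p = 0.00749 and 0.000933). They turned to 0.35 and 0.39 with slide as a fixed block and in slide 3 alone, and Mex3c to 0.071 with slide as a random block. Leaving out 1 array gave -0.59 to -0.25 for Trim2 and -0.57 to -0.28 for Mex3c. Ndfip1 turned to 0.022 with median centring, 0.028 with normexp and the 75th percentile, 0.25 with the random block and 0.46 with the fixed block and in slide 3 alone, and leaving out 1 array gave -0.14 to 0.041.

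The count of called probes was 11876, and 18311 after normexp with the 75th percentile, where the median log2 difference over all probes moved from -0.054 to -0.21 and the share of higher calls from 44.7% to 19.3%. It was 21921 with array weights, 3644 with slide as a fixed block, 3169 with slide as a random block, 920 in slide 3 alone (62.1% higher) and 7886 to 19560 without 1 array, lowest without control replicate 17, 7904 without control replicate 18 and highest without control replicate 20. Ndfip2 minus Mex3c passed, at an adjusted exact permutation p of 0.0238, after normexp with quantile normalization (0.72), in the authors' deposited table (0.65) and with outlier spots kept (0.72). It ranged from 0.66 to 0.84 without 1 array. Of those fits it passed only without LPS replicate 1 (0.79, adjusted exact permutation p = 0.0357) and without control replicate 20 (0.84, 0.0238). Ndfip2 minus Trim2 ranged from 0.57 to 0.99 and Trim2 minus Mex3c from -0.20 to 0.21, or 0.0046 after normexp with quantile normalization. Within slide 3 the shifts of Ndfip2 minus Mex3c, minus Trim2 and minus Ndfip1 were 0.29, 0.33 and 0.21. The cause of these changes was not tested. The 2 settings with the 75th percentile over spots or after normexp, those of Ndfip1 and those of pairs within slide 3 were chosen after seeing the data. No paired analysis was possible because the groups share no replicate number.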
